A study of Mus musculus with 3 samples.

Results

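The slowly metastatic subline NM11 was compared with the line it came from, the murine colon adenocarcinoma Colon26, over the whole transcriptome. Both lines are labelled as female BALB/c cells, were grown in RPMI1640 with 10% serum for 3 days and gave total RNA for 1 single-colour Agilent array each, so 2 of the 3 arrays in the series were used. The members were all 56605 non-control probes of the array. RefSeq accessions gave names to 32989 of these probes, which stood for 22907 genes. The third array, of the rapidly metastatic subline LuM1, is given beside the pair for genes the results turn on. NM11 is a single subline, and it stood here as 1 culture on 1 array, so no difference has a replicate check and no test was run.

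Sublines drawn from a tumour line keep its origin but can differ in the signalling programmes that are running in culture. Among the programmes known in colon tumour cells are the interferon response, in which STAT and IRF factors switch on antiviral genes, and the NF-kB and interleukin 6 pathways, which switch on chemokines and acute-phase proteins. Sterol synthesis, hypoxia signalling and matrix remodelling are further programmes that tumour cells set to their surroundings.

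Signals were scaled to bring the 75th percentile of the spots of either array to 585.1, and the brightest probe of a gene stands for it. A value is a scaled signal in array units, and a ratio is NM11 over Colon26 on the log2 scale. Errors after ± are those of the scanner software, which takes 10% of the signal plus a constant, and cover technical error only. Where the scanner software did not call a probe well above background on 1 array the difference is a bound, written with "at least". It was taken against that probe's signal or the dimmest detected signal of the array (26.4 for Colon26 and 19.6 for NM11 cells), whichever was larger. A ratio could be given for 13827 genes, of which 12466 were well above background on both arrays, and 8801 genes were below that level on both.

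At a 2-fold threshold 1152 genes (8.33% of 13827) were higher in NM11 cells and 1091 (7.89%) were lower, so 51.4% of the called genes were higher. Scaling to *Hprt* turned this share to 20.1% and scaling to the E1A spike-in RNAs to 29.4%, since they move the median log2 ratio of all measured genes from -0.02 to -0.51 and to -0.34. Of the higher genes 782 were measured on both arrays and 370 were bounds, and of the lower genes 681 were measured and 410 were bounds. Of the remaining genes 11003 (79.6%) were measured on both arrays and lay within 2-fold, and 581 (4.20%) had a bound under 2-fold, which does not place them. Differences of 8-fold or more were found for 231 genes that were higher and 227 that were lower, and of 32-fold or more for 61 and 38 genes. Counted over the 30371 probes with a ratio, named or not, 2085 (6.87%) were higher and 2517 (8.29%) lower.

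**Figure D1:**
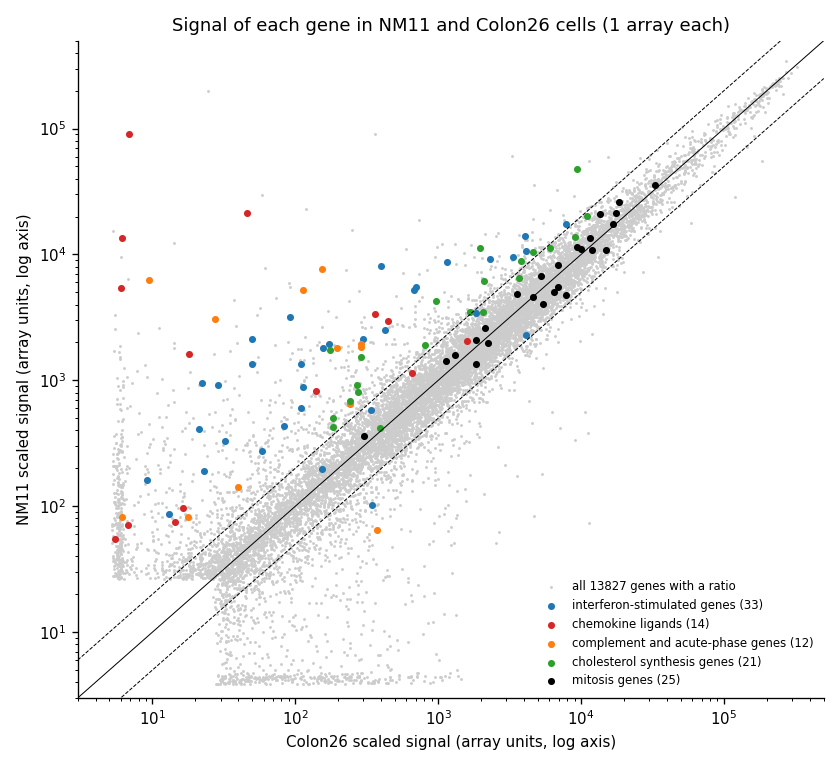
Scaled signal of each of the 13827 genes with a ratio in NM11 (y axis) against Colon26 cells (x axis), in array units on log axes, 1 array each. The solid line marks equal signals and the dashed lines 2-fold. Interferon-stimulated, chemokine, complement and cholesterol synthesis genes lie mostly above the upper dashed line, and the 25 mitosis genes lie between the dashed lines.

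Detected probes made up 49.9% of all on the Colon26 array and 52.5% on the NM11 array. Spots of 300 probes printed 10 times varied on an array by a median SD of 0.036 to 0.037 (log2). On the Colon26 array, spots that were bright there alone lay in patches. Of 1122 such spots 636 (56.7%) stood in crowded areas, with at least 4 others in the square of 7 by 7 spots around them, against 285 of 1269 (22.5%) on the NM11 array. In these areas of the Colon26 array 19 spots of dim repeated probes read a median of 2.79 times their probe's own median, against 0.996 times for 211 spots elsewhere, while 181 spots of bright repeated probes read 0.999 times. The patches touched the genes lower in NM11 cells most: 332 of 1091 (30.4%) had a crowded Colon26 spot, against 8.18% of all genes with a ratio, and among the lower bounds 233 of 410 (56.8%) did. For the higher genes the share with a crowded NM11 spot was 10.3%, against 4.88% of all genes. Without the crowded spots of the Colon26 array 1122 genes were higher and 768 lower. Genes whose spot was crowded are named as such.

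**Figure D2:**
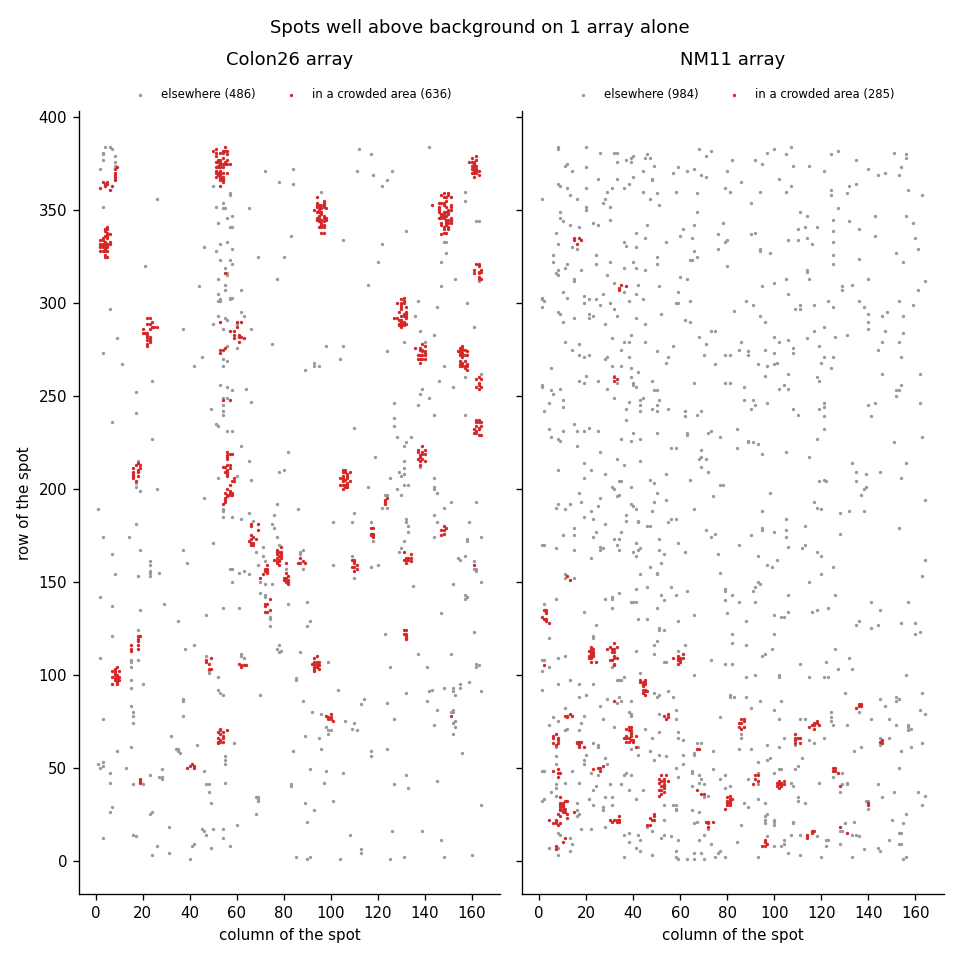
Position on the array (column on the x axis, row on the y axis, in spots) of the spots well above background on the Colon26 array alone (left) and on the NM11 array alone (right), of 3 arrays. Red points stand in crowded areas, 636 on the Colon26 array and 285 on the NM11 array, and form separate patches. Grey points lie elsewhere.

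Most markers of colon epithelium were not detected in either line. Of 20 markers of colon epithelium on the array 13 were below background in both lines, among them *Cdh1* and *Epcam*, the adhesion molecules of epithelia, *Vil1* of the brush border, and *Muc2*, the mucin of goblet cells. Of the 7 with a ratio 4 (57.1%) were at least 2-fold lower in NM11 cells and none was higher, beside 7.89% and 8.33% over all genes. *Cdx2*, the transcription factor of intestinal identity, had signals of 443 in Colon26, 167 in NM11 and 232 in LuM1 cells, a ratio of -1.41 ± 0.21. *Krt20*, a keratin of mature colonocytes, read 651 in Colon26, 157 in NM11 and 54.5 in LuM1 cells. It was 4.14-fold lower in NM11 cells, and LuM1 was the lowest of the lines. *Lgals4*, an intestinal galectin, was 2.90-fold lower, and *Phgr1* was at least 70.1-fold lower with a crowded Colon26 spot. The summed signal of the 20 markers was 2877 in Colon26 and 589 in NM11 cells, and 1505.0 and 584 without the crowded *Phgr1*. In a bulk sample fewer cells that carry a transcript and less transcript per cell cannot be told apart, here and for every gene below.

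Few markers of endothelial, myeloid, lymphoid and erythroid cells passed the threshold. Of 10 endothelial markers 7 were below background in both, *Cdh5*, *Kdr* and *Tek* among them, and the 3 with a ratio lay within 2-fold. Their summed signal was 84229 in Colon26 and 74917 in NM11 cells, nearly all of it from *Cd34*, a sialomucin also found on progenitor cells, which was bright in both lines (84005 and 74728). Of 10 myeloid markers 5 were below background in both, *Ptprc*, *Adgre1* and *Lyz2* among them, and the 5 with a ratio lay within 2-fold. *Itgam*, an integrin chain of myeloid cells, was the brightest of these with 5027 in Colon26 and 4251 in NM11 cells, and the sum of the list was 7105 in Colon26 and 6283 in NM11 cells. Lymphocyte markers gave 3 ratios of 10, the largest for *Cd79a*, which was at least 2.02-fold lower, and summed to 1726 in Colon26 and 1677 in NM11 cells. Erythroid markers gave 4 ratios of 7, of which 2 were measured within 2-fold and 2 were bounds under 2-fold, and summed to 164 in Colon26 and 209.9 in NM11 cells. Fibroblast markers stood apart: of 10 on the array 8 had a ratio, 5 (62.5%) were higher in NM11 cells and 1 (12.5%) was lower. Over all genes the shares were 8.33% and 7.89%. Of the 5 higher markers 3 were measured on both arrays, and a bound in this list could only be given where NM11 was high. The median log2 ratio of the fibroblast markers was 1.43 over the 6 measured on both arrays. *Thy1*, a surface glycoprotein of fibroblasts and thymocytes, read 5.26 (not well above background) in Colon26, 15416 in NM11 and 19560.0 in LuM1 cells. *Dcn*, the small proteoglycan decorin, read 6.07 (not well above background) in Colon26, 9599 in NM11 and 27503 in LuM1 cells. Neither was detected in Colon26 cells and both were bright in each subline, *Thy1* at least 584-fold higher and *Dcn* at least 363-fold higher in NM11 cells. *Col3a1* (9.04-fold higher), *Pdpn* (6.86-fold higher) and *Pdgfra* (5.90-fold higher) were also higher, *Fap* was 2.48-fold lower, and *Col1a1* (log2 ratio 0.30) and *Pdgfrb* (-0.07) lay within 2-fold on the log2 scale. The summed signal of the 10 fibroblast markers was 8691 in Colon26 and 50607 in NM11 cells, while *Lum* and *Tcf21* were below background in both. Whether fibroblasts were present in the cultures was not tested.

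As a check of the labels, *Xist* and 5 of the Y-linked genes were below background in both lines. *Ddx3y* was above it in Colon26 cells alone, at 43.4, with a crowded spot. Of 10 genes commonly used as internal controls 9 lay within 2-fold and *B2m* did not (2.25-fold higher). *Hprt* had a log2 ratio of 0.49 ± 0.20, *Gapdh* -0.34 ± 0.20 and *Actb* -0.01 ± 0.20.

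The highest signals that NM11 cells gained over Colon26 cells were those of genes of several kinds. *Crabp1*, which binds retinoic acid in the cytoplasm, read 24.6 (not well above background) in Colon26, 199683 in NM11 and 14560.3 in LuM1 cells. Its bound of at least 7561-fold higher was the largest of any gene. *Ccl2*, the chemokine that draws monocytes, read 6.87 (not well above background) in Colon26, 90782 in NM11 and 112391 in LuM1 cells and was at least 3438-fold higher. *App*, the amyloid precursor protein, read 14.2 (not well above background) in Colon26, 12442 in NM11 and 7119 in LuM1 cells, a bound of at least 471-fold higher. Among genes measured on both arrays *Mmp3*, a stromelysin that degrades matrix proteins, came first with 58.6 in Colon26, 29944 in NM11 and 103171 in LuM1 cells. It was 511-fold higher in NM11 than in Colon26 cells (log2 ratio 9.0 ± 0.25). *Rhox5*, an X-linked homeobox gene of the reproductive tract, read 363 in Colon26, 91087 in NM11 and 50726 in LuM1 cells, a difference of 251-fold (log2 ratio 7.97 ± 0.21). *Slpi*, a secreted inhibitor of leukocyte proteases, was 191-fold higher at its brightest probe, but its other probe read 116 in Colon26 and 175 in NM11 cells and lay within 2-fold. Both sublines stood above Colon26 cells for all these genes, with *Crabp1*, *Rhox5* and *App* brightest in NM11 and the others in LuM1 cells.

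*Ifitm1*, an interferon-induced membrane protein that hinders virus entry, behaved differently, with 250.4 in Colon26, 15731 in NM11 and 40 in LuM1 cells. NM11 was 62.8-fold higher than Colon26 (log2 ratio 5.97 ± 0.21), and LuM1 was the lowest. *Afp*, the fetal serum protein, read 53.6 in Colon26, 3303 in NM11 and 511 in LuM1 cells, *Crct1*, a protein of cornified epithelia, 91 in Colon26, 5963 in NM11 and 1976 in LuM1 cells, and *Gda*, guanine deaminase, 72.9 in Colon26, 4496 in NM11 and 15874 in LuM1 cells. Colon26 was the lowest line for each of them. *Ddt*, a tautomerase related to MIF, was 116-fold higher, and *Sipa1l2* was 70-fold higher.

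**Figure D3:**
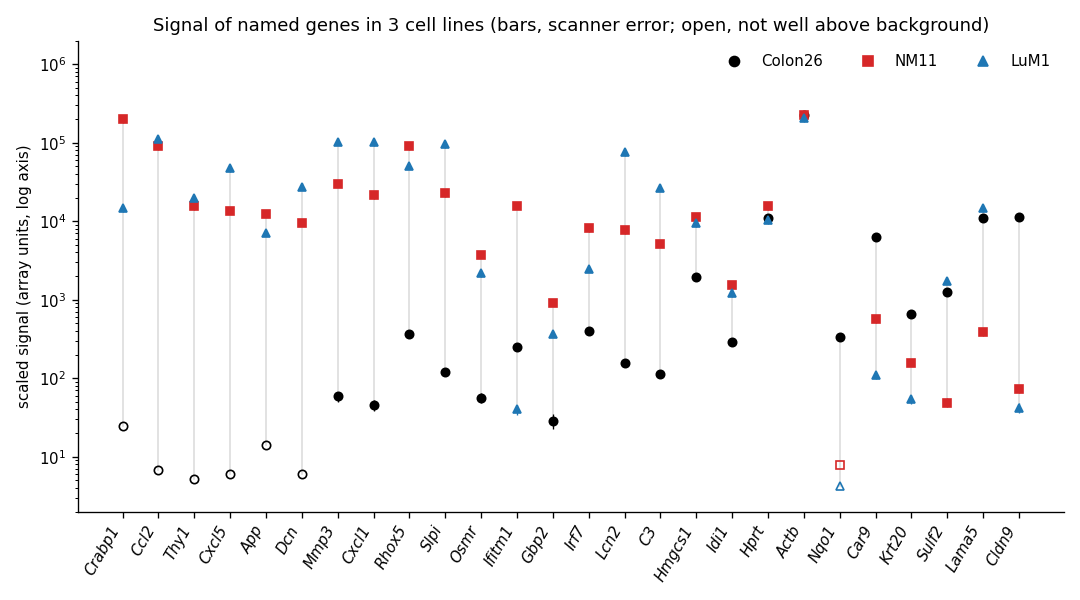
Scaled signal (y axis, array units, log axis) of 26 named genes (x axis) in Colon26 (circles), NM11 (squares) and LuM1 cells (triangles), 1 array each. Bars are the scanner software's error, mostly smaller than the symbols, and open symbols were not well above background. *Crabp1*, *Ccl2*, *Thy1*, *Cxcl5*, *App* and *Dcn* were open in Colon26 cells and bright in both sublines, and *Ifitm1* was bright in NM11 cells alone.

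Interferon-stimulated genes were higher in NM11 cells for the most part. All 33 of the list had a ratio, 28 were at least 2-fold higher, 1 was lower and 4 lay within 2-fold, beside 8.33% higher and 7.89% lower over all genes. Of the 28 higher genes 23 were measured on both arrays, and a bound in this list could only be given where NM11 was high. The median log2 ratio was 2.71 over the 28 measured on both arrays (2.84 with bounds), against -0.02 over all genes. *Oas2*, one of the synthetases that activate RNase L, read 49.9 in Colon26, 2126 in NM11 and 135 in LuM1 cells. It was 42.6-fold higher (log2 ratio 5.41 ± 0.26). *Ifi27l2a* read 91.7 in Colon26, 3180.1 in NM11 and 222 in LuM1 cells, and *Gbp2*, a guanylate-binding GTPase, 28.6 in Colon26, 919 in NM11 and 368 in LuM1 cells. *Usp18*, which removes ISG15 from proteins and damps the receptor, read 49.7 in Colon26, 1341 in NM11 and 420.4 in LuM1 cells. In each of these genes NM11 was the highest line, LuM1 lay between and Colon26 was the lowest. *Irf7*, the factor that drives interferon alpha genes, read 397 in Colon26, 8122 in NM11 and 2470.0 in LuM1 cells and was 20.5-fold higher (log2 ratio 4.36 ± 0.21). Among genes with a bound were *Ifi44* (at least 36.2-fold higher), *Gbp3* (at least 15.5-fold higher), *Rsad2* (at least 7.19-fold higher) and *Oas3* (at least 6.11-fold higher). The smallest differences past the threshold were those of *Trim25* (2.24-fold higher), *Bst2* (2.58-fold higher) and *Ifi35* (2.85-fold higher). *Isg15*, the ubiquitin-like modifier, read 4021 in Colon26, 13999.5 in NM11 and 2384 in LuM1 cells, so that NM11 was the highest line and LuM1 the lowest. *Cmpk2* was 3.37-fold lower, with a crowded Colon26 spot, and *Oasl1* (log2 ratio 0.90), *Ifih1* (0.78), *Ifit2* (0.36) and *Isg20* (-0.84) lay within 2-fold. The LuM1 ratio shares the Colon26 array, and in it 21 of 32 genes were higher and 3 were lower, with a median of 1.39, beside 13.1% and 11.8% of all genes.

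The interferon genes that were looked at were not detected. *Ifnb1*, *Ifna4* and *Ifng* were below background in both lines, as was the lambda receptor gene *Ifnlr1*. Other interferon genes were not examined. The type I receptor genes *Ifnar1* (log2 ratio 0.01) and *Ifnar2* (-0.29) and the type II receptor genes *Ifngr1* (log2 ratio 0.72) and *Ifngr2* (0.54) lay within 2-fold. Of the kinases *Jak2* was 2.31-fold higher, and *Jak1* (log2 ratio 0.64) and *Tyk2* (-0.73) lay within 2-fold. STAT2 and IRF9 belong to the factor that binds the response element. *Stat2* read 296 in Colon26, 2123 in NM11 and 1083 in LuM1 cells and *Irf9* 421 in Colon26, 2509 in NM11 and 1139.7 in LuM1 cells. Both were higher in NM11 cells, with log2 ratios of 2.84 ± 0.21 and 2.57 ± 0.20, and these genes also belong to the list above. The other probe of *Ifnar2* passed 2-fold (log2 ratio 1.14), and that of *Irf9* gave a log2 ratio of 1.40. The feedback inhibitor *Socs1* had a log2 ratio of -0.63. Among 15 sensors and adaptors of nucleic acids and bacterial products with a ratio 6 (40.0%) were higher and none was lower. Over all genes the shares were 8.33% and 7.89%, and scaling to *Hprt* left 2 sensors higher. The 6 were *Zbp1* (12.3-fold higher), *Ddx58* (7.80-fold higher), *Aim2* (2.45-fold higher), *Sting1* (2.17-fold higher), *Nod1* (2.07-fold higher) and *Tlr2* (at least 2.60-fold higher). Of these *Aim2* had a crowded NM11 spot. *Zbp1*, *Ddx58* and *Ifih1* also belong to the interferon-stimulated list, so they are counted there too. *Ifih1* (log2 ratio 0.78), *Cgas* (0.61), *Mavs* (-0.15) and *Eif2ak2* (-0.03) lay within 2-fold. The lists of interferon signalling and of sensors were drawn up after the values had been seen.

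The 250 bases before the start of 25 interferon-stimulated genes were at hand from RefSeq (GRCm38.p6), and 11 of these held the core of the interferon-stimulated response element on either strand (44.0%). The letters searched were GAAA, 2 bases of any kind and GAAA again, and matches may overlap. The share was 2.98% over all 32851 promoters, 3.22% over genes with a ratio, 5.92% over the genes higher in NM11 and 3.55% over the lower ones. A match is a run of letters and not a shown binding site. Promoters of *Gbp2*, *Gbp3* and *Ifit3* are shown 5' to 3' in the direction of the gene, since these genes differed most between the lines among those that held the letters. Capitals mark the element, read here on the other strand.
Gbp2 (chr3:142620413-142620662, plus strand): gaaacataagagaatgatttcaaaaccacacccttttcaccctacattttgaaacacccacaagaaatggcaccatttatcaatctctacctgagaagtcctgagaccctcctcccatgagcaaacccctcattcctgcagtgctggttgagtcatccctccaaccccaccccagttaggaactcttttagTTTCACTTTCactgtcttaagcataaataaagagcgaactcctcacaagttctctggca
Gbp3 (chr3:142559794-142560043, plus strand): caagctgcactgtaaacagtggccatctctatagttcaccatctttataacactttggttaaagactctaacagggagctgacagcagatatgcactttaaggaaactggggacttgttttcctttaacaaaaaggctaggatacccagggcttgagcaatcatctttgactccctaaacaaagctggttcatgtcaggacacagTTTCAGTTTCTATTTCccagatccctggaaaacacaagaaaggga
Ifit3 (chr19:34583279-34583528, plus strand): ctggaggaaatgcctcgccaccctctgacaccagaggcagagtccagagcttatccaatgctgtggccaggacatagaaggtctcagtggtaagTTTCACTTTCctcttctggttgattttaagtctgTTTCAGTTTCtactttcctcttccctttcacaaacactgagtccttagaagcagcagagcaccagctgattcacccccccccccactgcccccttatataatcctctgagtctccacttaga

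Of 16 genes of antigen presentation through MHC class I, all measured on both arrays, 7 (43.75%) were higher and none was lower. Over all genes the shares were 8.33% and 7.89%. The median log2 ratio of the list was 0.80. Scaling to *Hprt* left 4 higher and 1 lower. *Nlrc5*, the transactivator of class I genes, read 105 in Colon26, 1771 in NM11 and 2814 in LuM1 cells and was 16.9-fold higher (log2 ratio 4.08 ± 0.22). The immunoproteasome subunits *Psmb9* (4.92-fold higher), *Psmb8* (2.94-fold higher) and *Psmb10* (2.75-fold higher) were higher, *Psmb9* with a crowded spot, as were *Erap1* (3.14-fold higher), *B2m* (2.25-fold higher) and *Cd274* (2.07-fold higher), the trimming peptidase, the light chain and the checkpoint ligand PD-L1. The heavy chain genes *H2-K1* (log2 ratio 0.14), *H2-D1* (0.53) and *H2-Q7* (0.58) and the peptide transporter genes *Tap1* (log2 ratio 0.30) and *Tap2* (-0.55) lay within 2-fold. Heavy chain genes are near-identical copies, so their probes may share signal.

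Most chemokine ligands that could be measured were higher in NM11 cells. Of 24 on the array 14 had a ratio, 12 (85.7%) were at least 2-fold higher in NM11 cells and none was lower. Over all genes the shares were 8.33% and 7.89%. Of the 12 only 4 were measured on both arrays, since most were below background in Colon26 cells, and a bound in this list could only be given where NM11 was high. Over the 6 measured genes the median log2 ratio was 2.65. *Cxcl1*, a neutrophil attractant, read 45.9 in Colon26, 21436 in NM11 and 102407 in LuM1 cells. It was 467-fold higher (log2 ratio 8.87 ± 0.28) in NM11 cells, and LuM1 was higher still. *Cxcl5*, of the same receptor CXCR2, read 6.09 (not well above background) in Colon26, 13581 in NM11 and 47428 in LuM1 cells, and *Ccl7*, a monocyte attractant, 6.0 (not well above background) in Colon26, 5407 in NM11 and 18394 in LuM1 cells. Both were bright in each subline and undetected in Colon26 cells. *Ccl20*, the ligand of CCR6, read 17.9 (not well above background) in Colon26, 1620.1 in NM11 and 6.37 (not well above background) in LuM1 cells, so that it was detected in NM11 cells alone. *Cxcl10* and *Ccl5*, which attract T cells, and *Ccl9* were also highest in NM11 cells. *Cxcl10* read 362 in Colon26, 3355 in NM11 and 201 in LuM1 cells, *Ccl5* 445 in Colon26, 2961 in NM11 and 212 in LuM1 cells, and *Ccl9* 139 in Colon26, 823 in NM11 and 58.3 in LuM1 cells. NM11 was 9.27-fold, 6.66-fold and 5.90-fold above Colon26 for these, while LuM1 lay below Colon26. Smaller differences were those of *Cxcl16* (at least 3.66-fold higher), *Ccl17* (at least 2.84-fold higher), *Ccl8* (at least 2.70-fold higher) and *Cxcl2* (at least 2.09-fold higher), and *Ccl25* (log2 ratio 0.82) and *Cx3cl1* (0.37) lay within 2-fold on the log2 scale. No chemokine that was higher had a crowded NM11 spot.

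Cytokines and growth factors of blood cells were mixed. Of 16 with a ratio 9 (56.25%) were higher and 2 (12.5%) were lower, beside 8.33% and 7.89% over all genes. Of the 9 only 4 were measured on both arrays, and a bound in this list could only be given where NM11 was high. The median log2 ratio was 0.58 over the 10 measured. *Il6* read 14.2 (not well above background) in Colon26, 1969 in NM11 and 4770.3 in LuM1 cells and was at least 74.6-fold higher. *Csf3*, which drives granulocyte formation, read 5.31 (not well above background) in Colon26, 181 in NM11 and 831 in LuM1 cells, and *Csf2*, which acts on granulocytes and macrophages, 21.3 (not well above background) in Colon26, 926 in NM11 and 616 in LuM1 cells. Colon26 lacked a detectable signal of all of them, and *Csf2* had a crowded NM11 spot. *Il1rn*, the interleukin 1 receptor antagonist, read 5.52 (not well above background) in Colon26, 372 in NM11 and 4.20 (not well above background) in LuM1 cells, *Kitl*, the ligand of KIT, 50.2 in Colon26, 463 in NM11 and 73.2 in LuM1 cells, and *Il33*, an alarmin, 128 in Colon26, 749 in NM11 and 62.3 in LuM1 cells. In these NM11 was the highest line and LuM1 lay near or below Colon26. *Il18* (4.07-fold higher), *Lif* (2.73-fold higher) and *Hgf* (at least 2.74-fold higher) were higher as well, *Hgf* with a crowded spot. *Vegfa* (2.78-fold lower) and *Il15* (2.37-fold lower) were the lower members, *Vegfa* at its brightest probe but not at 2 of its other probes (log2 ratios -0.29 and -0.41), and *Tnf* (log2 ratio 0.06), *Csf1* (0.18), *Il11* (0.33) and *Pgf* (0.83) lay within 2-fold.

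Of 15 NF-kB subunits and feedback genes with a ratio 9 were higher and none was lower, with a median of 1.25 over the 12 measured. *Bcl3*, a nuclear IkB protein that works with p50 and p52, read 6.73 (not well above background) in Colon26, 6346 in NM11 and 12008 in LuM1 cells and was at least 240.3-fold higher. *Nfkbiz*, another nuclear IkB protein, read 179 in Colon26, 1967 in NM11 and 3651 in LuM1 cells (log2 ratio 3.46 ± 0.21), and *Nfkbie* 342 in Colon26, 2024 in NM11 and 2125 in LuM1 cells (log2 ratio 2.57 ± 0.21). In each of them Colon26 was low and the sublines were high. *Birc3* (at least 7.86-fold higher), *Vcam1* (7.02-fold higher), *Nfkbia* (3.88-fold higher), *Relb* (3.02-fold higher), *Sod2* (2.40-fold higher) and *Tnip1* (2.35-fold higher) followed, *Nfkbia* with a crowded spot. The subunit genes *Rela* (log2 ratio 0.13), *Nfkb1* (0.52) and *Nfkb2* (0.91) lay within 2-fold, apart from *Relb*. Beside them, 6 of 11 (54.5%) receptors and signalling genes of the interleukin 6 family with a ratio were higher and none was lower. Over all genes the shares were 8.33% and 7.89%. The interleukin 6 list was drawn up after the values had been seen. *Osmr*, a receptor chain of oncostatin M, read 56.8 in Colon26, 3728 in NM11 and 2183 in LuM1 cells and was 65.7-fold higher (log2 ratio 6.04 ± 0.25). The shared chain *Il6st* was 3.37-fold higher, *Stat3* 6.25-fold higher, its feedback inhibitor *Socs3* 3.46-fold higher, *Cebpd* 7.64-fold higher and *Il11ra1* 2.88-fold higher. *Il6ra* (0.72) and *Cebpb* (0.69) lay within 2-fold.

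Complement and acute-phase genes, which liver and inflamed epithelia make under NF-kB and STAT3, gave 12 ratios of 16, with 11 (91.7%) higher and 1 (8.33%) lower. Over all genes the shares were 8.33% and 7.89%. Of the 11 higher genes 7 were measured on both arrays, and a bound in this list could only be given where NM11 was high. The median was 2.72 over the 8 measured. *Hp*, haptoglobin, read 9.43 (not well above background) in Colon26, 6213 in NM11 and 10221 in LuM1 cells, *Saa3*, a serum amyloid A, 27.3 (not well above background) in Colon26, 3069 in NM11 and 84512 in LuM1 cells, and *Lcn2*, which binds bacterial siderophores, 154 in Colon26, 7731 in NM11 and 75728 in LuM1 cells. For all of them Colon26 was the lowest line and LuM1 the highest, and NM11 was at least 235-fold higher, at least 113-fold higher and 50.1-fold higher than Colon26. *C3*, the central complement component, read 114 in Colon26, 5186 in NM11 and 26806 in LuM1 cells (log2 ratio 5.51 ± 0.22). Its other probe gave a smaller difference, with 312 in Colon26 and 2534 in NM11 cells (log2 ratio 3.02). The proteases of the first component were higher too, *C1s1* (6.84-fold higher) and *C1ra* (6.35-fold higher), as were *Pros1* (9.23-fold higher), *C4b* (3.60-fold higher), *Saa1* (2.70-fold higher) and *Saa2* (at least 3.08-fold higher), *Saa2* with a crowded spot and with a close relative in *Saa1*. *C2* went the other way in NM11 cells, with 375 in Colon26, 64.3 in NM11 and 1162 in LuM1 cells.

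An NF-kB site, searched as GGGA, 1 base of any kind and TTTCC, stood on either strand in the 250 bases before 3 of 17 chemokine genes and 2 of 12 genes of the NF-kB list that had a RefSeq promoter. Over all promoters the share was 0.356%, and over the genes higher in NM11 cells it was 0.683% (6 of 878). None of 9 complement and acute-phase promoters held it. The promoters of *Cxcl1*, the chemokine with the largest measured ratio, and of *Nfkbia* are shown, with the site in capitals. In *Nfkbia* it is read on the other strand.
Cxcl1 (chr5:90890995-90891244, plus strand): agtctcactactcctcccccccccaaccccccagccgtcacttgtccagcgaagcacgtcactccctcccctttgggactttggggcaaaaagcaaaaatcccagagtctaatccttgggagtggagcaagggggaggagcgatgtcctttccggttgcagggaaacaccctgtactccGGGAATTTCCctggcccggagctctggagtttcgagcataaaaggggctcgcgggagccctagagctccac
Nfkbia (chr12:55492648-55492897, minus strand): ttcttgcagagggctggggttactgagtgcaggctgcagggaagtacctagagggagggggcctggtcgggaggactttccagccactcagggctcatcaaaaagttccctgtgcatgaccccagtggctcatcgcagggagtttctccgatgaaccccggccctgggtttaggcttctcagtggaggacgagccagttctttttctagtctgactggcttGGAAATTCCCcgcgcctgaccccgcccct

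**Figure D4:**
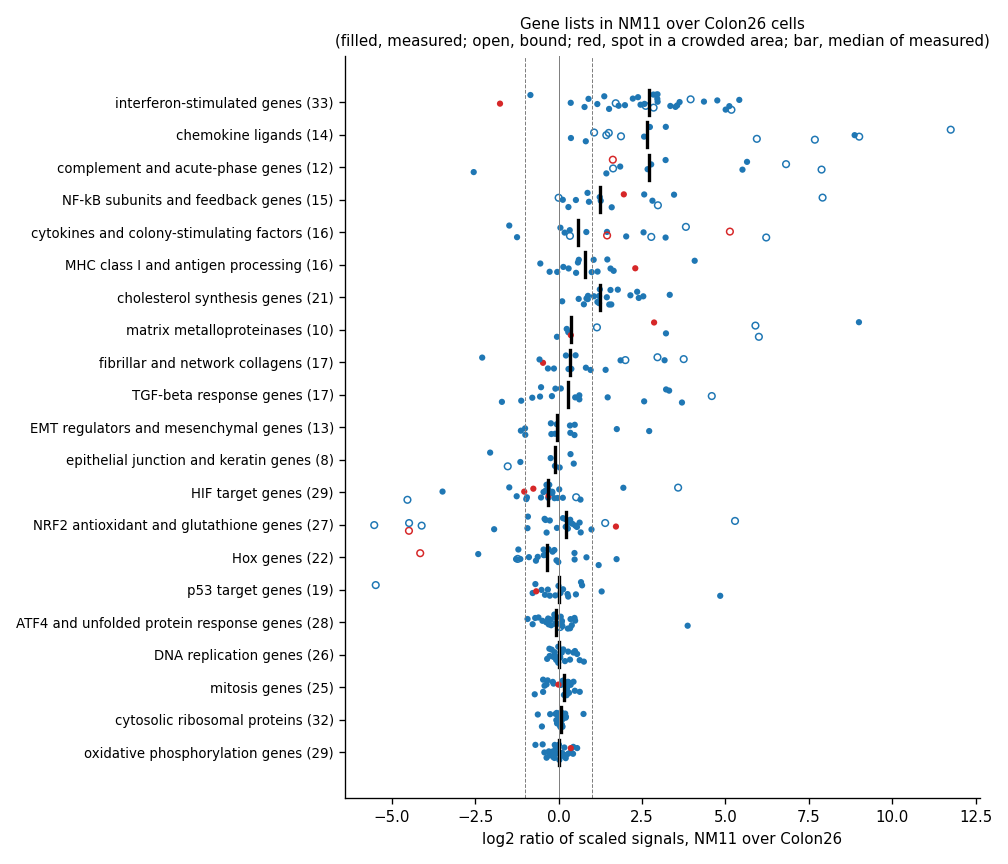
Log2 ratio of scaled signals, NM11 over Colon26 cells (x axis), for the members of 21 gene lists (rows, with the number of members that have a ratio). Filled points were measured on both arrays, open points are bounds, red points had a spot in a crowded area, bars are the median of the measured members and dashed lines mark 2-fold. The upper 7 lists lie mostly right of 0, and the lists of replication, mitosis, ribosome and respiration at the bottom lie within 2-fold.

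Most genes of cholesterol synthesis were higher in NM11 cells. All 21 members with a ratio were measured on both arrays. Of these 15 (71.4%) were at least 2-fold higher in NM11 cells and none was lower, beside 8.33% and 7.89% over all genes. The median log2 ratio was 1.24. *Hmgcs1*, which makes the precursor HMG-CoA, read 1953 in Colon26, 11346 in NM11 and 9369 in LuM1 cells and was 5.81-fold higher (log2 ratio 2.54 ± 0.20). The mevalonate steps gave *Mvk* (0.84), *Pmvk* (1.21) and *Mvd* (1.77) as log2 ratios. *Idi1*, the isomerase of the prenyl units, read 288 in Colon26, 1525 in NM11 and 1207 in LuM1 cells, and *Fdps*, which joins them, 9352 in Colon26, 47837 in NM11 and 21947 in LuM1 cells. NM11 was the highest of the lines in each. The committed steps followed with *Fdft1* (log2 ratio 1.58), *Sqle* (0.88), *Lss* (1.06) and *Cyp51* (2.15). Of the later enzymes *Hsd17b7* was 10.1-fold higher, and *Nsdhl* (log2 ratio 1.56), *Dhcr7* (1.52), *Ebp* (0.88), *Sc5d* (0.76), *Msmo1* (0.60) and *Tm7sf2* (0.11) ran from past the threshold to near 0. The regulators *Srebf2* (1.24) and *Insig1* (1.21) were higher by more than 2-fold. Scaling to *Hprt* left 9 genes past the threshold.

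The sterol regulatory element TCACNCCAC was found on either strand in 1 of 16 promoters of the list, that of *Hmgcs1*, against 1.05% of all promoters and 1.25% of those of the genes higher in NM11. It is shown as an example of the letters searched.
Hmgcs1 (chr13:119690101-119690350, plus strand): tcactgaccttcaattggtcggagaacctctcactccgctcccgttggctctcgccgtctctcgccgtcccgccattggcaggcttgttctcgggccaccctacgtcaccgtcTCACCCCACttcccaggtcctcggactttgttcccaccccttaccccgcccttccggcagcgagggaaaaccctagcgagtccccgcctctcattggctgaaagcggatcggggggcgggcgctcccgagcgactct

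Genes that the liver X receptor switches on for sterol efflux did not move as a group. Of 15 with a ratio 2 were higher and 3 were lower. *Abcg1*, which exports cholesterol to HDL, read 1122 in Colon26, 97.6 in NM11 and 6139.6 in LuM1 cells. NM11 was the lowest line, with a log2 ratio -3.52 ± 0.21 against Colon26, and LuM1 the highest. *Pltp*, the phospholipid transfer protein, read 381 in Colon26, 5.50 (not well above background) in NM11 and 34.2 in LuM1 cells. *Mylip*, a ubiquitin ligase, was 8.39-fold higher, *Apoe* 2.13-fold higher, and the receptor gene *Nr1h3* 2.77-fold lower with a crowded Colon26 spot. *Abca1* (log2 ratio 0.24), *Srebf1* (0.19), *Fasn* (0.52) and *Scd1* (0.30) lay within 2-fold. Among 8 transporters of drugs with a ratio only *Abcb1a*, a P-glycoprotein, passed the threshold (12.5%, near the 8.33% over all genes). It read 81.8 in Colon26, 414 in NM11 and 568 in LuM1 cells. *Abcg2* was below background in both lines.

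Matrix metalloproteinases were higher or within 2-fold. Of 18 on the array 10 had a ratio, 6 were higher and none was lower. Over all genes 8.33% were higher and 7.89% lower. Of the 6 only 3 were measured on both arrays, and a bound in this list could only be given where NM11 was high. The median log2 ratio was 0.37 over the 7 measured. Beside *Mmp3*, *Mmp13*, a collagenase, read 27 (not well above background) in Colon26, 1609 in NM11 and 6283 in LuM1 cells, *Mmp2*, a gelatinase, 5.81 (not well above background) in Colon26, 1691 in NM11 and 1512 in LuM1 cells, and *Mmp19* 503 in Colon26, 4675 in NM11 and 5397 in LuM1 cells. Colon26 was the lowest line for each. *Mmp10* (7.27-fold higher) and *Mmp8* (at least 2.22-fold higher) were higher as well, *Mmp10* with a crowded spot. *Mmp14*, the membrane-bound activator of MMP2, had a log2 ratio of -0.05 ± 0.21, and *Mmp7* and *Mmp9* were below background in both lines. The inhibitors *Timp1* (log2 ratio 0.99), *Timp2* (0.34), *Timp3* (-0.13) and *Reck* (-0.69) lay within 2-fold.

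Collagens and other matrix genes moved in both directions. Of 17 collagen genes with a ratio 6 (35.3%) were higher and 1 (5.88%) was lower, beside 8.33% and 7.89% over all genes. Of the 6 only 3 were measured on both arrays, and a bound in this list could only be given where NM11 was high. The median log2 ratio was 0.34 over the 14 measured. *Col3a1*, of reticular fibres, read 294 in Colon26, 2655 in NM11 and 1169.6 in LuM1 cells (log2 ratio 3.18 ± 0.21), and *Col12a1* 6.12 (not well above background) in Colon26, 355 in NM11 and 4.85 (not well above background) in LuM1 cells. The latter was detected in NM11 cells alone. The collagen VI chains *Col6a1* (3.62-fold higher), *Col6a2* (2.66-fold higher) and *Col6a3* (at least 7.80-fold higher) were higher, *Col5a3* was at least 4.0-fold higher, and *Col7a1*, of anchoring fibrils, was 4.88-fold lower. *Col1a1* (log2 ratio 0.30), *Col1a2* (0.51) and *Col4a1* (-0.32) lay within 2-fold. Of 24 glycoproteins and proteoglycans 6 were higher and 3 lower. *Loxl1*, which crosslinks elastin, read 1017 in Colon26, 2659 in NM11 and 48 in LuM1 cells, and *Thbs2*, a thrombospondin, 3176 in Colon26, 6687 in NM11 and 256 in LuM1 cells. In both NM11 was the highest line and LuM1 the lowest. *Tnc* was at least 7.62-fold higher, *Ecm1* (3.65-fold higher) and *Nid1* (2.05-fold higher) were also higher, *Fbn1* was 2.98-fold lower, and *Postn* was at least 4.52-fold lower with a crowded Colon26 spot. *Lama5*, the laminin chain of epithelial basement membranes, read 11140.0 in Colon26, 383 in NM11 and 14663 in LuM1 cells. NM11 stood alone at the low end, 29.1-fold lower than Colon26 (log2 ratio -4.86 ± 0.20). Among 11 integrin genes *Itgb4* (5.67-fold higher) and *Itga1* (at least 2.07-fold higher) were higher and *Itgb7* (3.56-fold lower) and *Itga3* (2.74-fold lower) lower. Each direction held 18.2% of the 11 genes, beside 8.33% higher and 7.89% lower over all genes.

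Of 17 TGF-beta response genes with a ratio 6 (35.3%) were higher and 2 (11.8%) lower, beside 8.33% and 7.89% over all genes. *Id3* and *Id1*, inhibitors of differentiation that BMP signals switch on, read 955 in Colon26, 9488 in NM11 and 10439 in LuM1 cells and 773 in Colon26, 4568 in NM11 and 6296 in LuM1 cells. *Bambi*, a decoy receptor, read 12.8 (not well above background) in Colon26, 636 in NM11 and 366 in LuM1 cells. Both sublines were above Colon26 cells for these, as they were for *Tgfbi* (13-fold higher), *Ltbp2* (9.32-fold higher) and *Tgfbr1* (2.77-fold higher). *Ltbp3* (3.24-fold lower) and *Tgfb2* (2.17-fold lower) were lower, and *Smad7* (log2 ratio -0.20) and *Skil* (0.62) lay within 2-fold. Regulators of the mesenchymal state split. *Snai1* was 6.57-fold higher (log2 ratio 2.71 ± 0.21) and *Prrx1* 3.35-fold higher, *Snai2* was 2.19-fold lower (log2 ratio -1.13 ± 0.20) and *Cdh11* 2.0-fold lower, and *Vim* (log2 ratio -0.05), *Zeb1* (0.48) and *Twist1* (-0.10) lay within 2-fold. *Cdh2*, at -1.0, lay just inside the threshold and *Cdh11*, at -1.0, just outside it. Of 12 contractile genes 1 was higher (8.33%, the share over all genes), *Csrp1* (2.16-fold, crowded spot), which scaling to *Hprt* or to E1A brought under 2-fold. The lower ones were *Myl9* (at least 3.40-fold lower) and *Des* (at least 3.28-fold lower), 16.7% beside 7.89% over all genes. Of 26 epithelial junction and keratin genes 17 were below background in both lines. Of 8 with a ratio 3 (37.5%, beside 7.89% over all genes) were lower, *Krt20* (4.14-fold lower) and *Pkp3* (at least 2.87-fold lower) among them.

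The lowest genes in NM11 cells belonged to no single list. *Cldn9*, a tight junction claudin, read 11445 in Colon26, 73.6 in NM11 and 41.8 in LuM1 cells, the largest measured difference in this direction at 155-fold lower (log2 ratio -7.28 ± 0.22). *Iftap*, a protein tied to intraflagellar transport, read 4697 in Colon26, 84.3 in NM11 and 29.8 in LuM1 cells, and *Gm10639*, a predicted gene, 2529 in Colon26, 51.1 in NM11 and 38.6 in LuM1 cells. Colon26 was far above both sublines in these. *Sulf2*, which trims sulphate from heparan sulphate outside the cell, read 1239 in Colon26, 48.9 in NM11 and 1751 in LuM1 cells (log2 ratio -4.66 ± 0.24), *Slc26a10* 725 in Colon26, 23.9 in NM11 and 181 in LuM1 cells, and *Cst6*, a cystatin, 618 in Colon26, 25.2 in NM11 and 231 in LuM1 cells. For *Sulf2* NM11 alone was low, as for *Lama5*, and for the other two LuM1 lay between. *Wnt10b*, a Wnt ligand, read 1289 in Colon26, 51.2 in NM11 and 5.86 (not well above background) in LuM1 cells, *Tmem184a* 5324 in Colon26, 181 in NM11 and 14.1 (not well above background) in LuM1 cells, and *Lhfpl1* 9089 in Colon26, 334 in NM11 and 374 in LuM1 cells. These were low in both sublines. *Trim54* (42.9-fold lower) and *Gm17745* (42.2-fold lower) had crowded Colon26 spots. Among the 6 largest bounds *Crtam*, a surface protein of lymphocytes, read 1447 in Colon26, 4.25 (not well above background) in NM11 and 4.52 (not well above background) in LuM1 cells and was at least 73.9-fold lower. The other 5, *Phgr1* (at least 70.1-fold lower), *Ugt2b38* (at least 69-fold lower), *AI661453* (at least 68.4-fold lower), *Cdh19* (at least 62.2-fold lower) and *Cyp2b10* (at least 60.8-fold lower), had crowded Colon26 spots.

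Most HIF target genes did not pass the threshold, but the share that was lower exceeded that over all genes. Of 29 with a ratio 5 (17.2%) were lower and 2 (6.90%) were higher, beside 7.89% and 8.33% over all genes. The median log2 ratio was -0.33. *Car9*, the carbonic anhydrase of hypoxic tumours, read 6264 in Colon26, 563 in NM11 and 110.0 in LuM1 cells and was 11.1-fold lower (log2 ratio -3.48 ± 0.20). *Egln3*, an oxygen-sensing prolyl hydroxylase, read 451 in Colon26, 9.36 (not well above background) in NM11 and 723 in LuM1 cells. NM11 was the one line in which it was not well above background. *Vegfa* read 8509 in Colon26, 3058 in NM11 and 3300.2 in LuM1 cells and *Ankrd37* 1731 in Colon26, 725 in NM11 and 1734 in LuM1 cells, and *Pfkfb4* was 2.04-fold lower with a crowded Colon26 spot. The higher members were *Adm*, adrenomedullin (at least 12-fold higher), and *Car12* (3.84-fold higher). Glycolytic genes lay within 2-fold, with log2 ratios of -0.28 for *Slc2a1*, -0.32 for *Hk2*, -0.19 for *Pgk1* and -0.03 for *Ldha*.

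Among 27 antioxidant and glutathione genes 3 (11.1%) were higher, near the 8.33% over all genes, and 5 (18.5%) lower, beside 7.89%. *Nqo1*, a quinone reductase, read 336 in Colon26, 7.87 (not well above background) in NM11 and 4.29 (not well above background) in LuM1 cells, *Gsta2*, a glutathione transferase, 942 in Colon26, 20.5 (not well above background) in NM11 and 17.4 (not well above background) in LuM1 cells, and *Cbr3*, a carbonyl reductase, 436 in Colon26, 3.94 (not well above background) in NM11 and 4.14 (not well above background) in LuM1 cells. These were detected in Colon26 cells alone, with bounds of at least 17.2-fold lower, at least 45.9-fold lower and at least 22.3-fold lower. *Gsta4* (3.81-fold lower) and *Gsta3* (at least 22.3-fold lower) were lower as well, *Gsta3* with a crowded Colon26 spot, and alpha class transferases are close relatives whose probes may share signal. *Mgst1* (at least 39-fold higher), *Gstm2* (3.29-fold higher) and *Gstt1* (at least 2.63-fold higher) were higher, *Gstm2* with a crowded spot. Other targets of NRF2 lay within 2-fold, with log2 ratios of 0.99 for *Hmox1*, -0.05 for *Txnrd1*, 0.13 for *Gclc* and -0.92 for *Srxn1*.

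Of 19 p53 targets *Fas*, the death receptor, read 48.1 in Colon26, 1381 in NM11 and 3276 in LuM1 cells and was 28.7-fold higher (log2 ratio 4.84 ± 0.27), *Plk2* was 2.45-fold higher, and *Pmaip1*, which encodes the cell death protein NOXA, read 871 in Colon26, 3.95 (not well above background) in NM11 and 4.13 (not well above background) in LuM1 cells. *Pmaip1* was detected in Colon26 cells alone, a bound of at least 44.5-fold lower. The other targets lay within 2-fold, *Cdkn1a* (log2 ratio -0.51), *Mdm2* (0.52) and *Bax* (-0.26) among them. So 10.5% of the 19 were higher and 5.26% lower, near the 8.33% and 7.89% over all genes. Of 28 ATF4 and unfolded protein response genes *Fgf21* alone passed the threshold (3.57% higher, beside 8.33% over all genes). It read 30.5 in Colon26, 445 in NM11 and 4.17 (not well above background) in LuM1 cells. NM11 was 14.6-fold higher than Colon26. Of 21 AP-1 and immediate early genes *Fos* (at least 20.6-fold higher) and *Egr2* (5.83-fold higher) were higher and the rest lay within 2-fold. The higher share was 9.52%, near the 8.33% over all genes. Most Wnt targets and antagonists (11 of 18) were below background in both lines, and *Dkk3*, a Dickkopf family member, read 7.21 (not well above background) in Colon26, 953 in NM11 and 4.03 (not well above background) in LuM1 cells. It was detected in NM11 cells alone, and *Lef1* (2.01-fold higher) just passed the threshold. These were 2 of 7 genes of the list with a ratio (28.6%, beside 8.33% over all genes).

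Genes of growth and of basic metabolism lay within 2-fold. None of 26 replication genes, 25 mitosis genes, 13 cyclins, kinases and their inhibitors, 32 cytosolic ribosomal proteins and 29 oxidative phosphorylation genes with a ratio passed 2-fold, with medians between -0.09 and 0.16. Scaling to *Hprt* took 2 of the cyclin list and 1 each of the mitosis, ribosomal and oxidative phosphorylation lists past 2-fold on the lower side, and further probes of *Ccnb1* (log2 ratio 1.08) and *Orc1* (1.16) passed it on the higher side. *Mki67*, the marker of cycling cells, had a log2 ratio of 0.26 ± 0.20, *Pcna* -0.01 ± 0.20 and *Myc* -0.19 ± 0.20. *Cdkn2a* and *Cdkn2b* were below background in both lines.

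Among genes of development, 22 of 36 Hox genes had a ratio, with a median of -0.35. Of these 2 (9.09%) were higher, near the 8.33% over all genes, and 6 (27.3%) lower, beside 7.89%. *Hoxb9* (3.34-fold higher) and *Hoxc6* (2.30-fold higher) were the higher members, and *Hoxa7* (5.30-fold lower), *Hoxc4* (2.42-fold lower), *Hoxa3* (2.30-fold lower), *Hoxa2* (2.21-fold lower), *Hoxa11* (at least 2.34-fold lower) and *Hoxd10* (at least 17.7-fold lower) the lower ones, *Hoxd10* with a crowded spot. The Hoxb cluster members from *Hoxb3* to *Hoxb8* lay within 2-fold. Most imprinted genes (14 of 20) were below background in both lines, *H19* and *Igf2* among them. The only one past the threshold was *Slc22a18* (3.98-fold lower, crowded spot). It made up 16.7% of the 6 with a ratio, beside 7.89% over all genes. Of 12 cancer stem cell markers with a ratio 3 were higher, all as bounds. These were *Thy1*, *Alcam*, an adhesion molecule, with 6.34 (not well above background) in Colon26, 1257 in NM11 and 3984 in LuM1 cells, and *Dclk1*, a tuft cell kinase, with 6.06 (not well above background) in Colon26, 374 in NM11 and 74.2 in LuM1 cells. *Sox9* was 2.11-fold lower (8.33% of the 12, near the 7.89% over all genes). *Cd44* (log2 ratio 0.48), *Bmi1* (-0.32) and *Klf4* (-0.13) lay within 2-fold.

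Retinoid genes beyond *Crabp1* did not follow it for the most part. *Rarb*, a retinoic acid receptor that retinoic acid itself switches on, read 325 in Colon26, 60.1 in NM11 and 4.47 (not well above background) in LuM1 cells, and *Rdh10*, which makes retinal, 1451 in Colon26, 441 in NM11 and 742 in LuM1 cells. Both were lower in NM11 than in Colon26 cells, with log2 ratios of -2.44 ± 0.23 and -1.72 ± 0.20. Of 11 with a ratio 6 were measured within 2-fold and 1 had a bound under 2-fold. The higher and the lower members each made up 18.2%, beside 8.33% and 7.89% over all genes. Beside *Rhox5* and *Afp*, the germ cell gene *Dazl*, which binds RNA, read 38.8 in Colon26, 1974 in NM11 and 1796 in LuM1 cells and was 50.8-fold higher (log2 ratio 5.67 ± 0.30). *Lin28b* was at least 4.32-fold higher and *Dppa3* at least 2.19-fold higher, the latter with a crowded spot. Other germ cell genes, *Ddx4*, *Sycp3*, *Mael* and *Tdrd1* among them, were below background in both lines. Both lists were drawn up after the values had been seen.

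The ratio also differed by chromosome. Over the 461 genes of chromosome 13 measured on both arrays the median log2 ratio was 0.33 and 78.1% lay above 0. Of them 60 (13.0%) were at least 2-fold higher and 7 (1.52%) lower. Over the 642 genes of chromosome 17 the median was -0.39 and 22.4% lay above 0, with 23 (3.58%) higher and 70 (10.9%) lower. Of all 12466 genes measured on both arrays 782 were higher and 681 lower. Chromosomes 13 and 17 had the highest and the lowest median of the chromosomes with at least 20 measured genes (the Y chromosome had 2). The median was -0.02 over all measured genes, and a scaling factor moves all chromosomes alike.

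**Figure D5:**
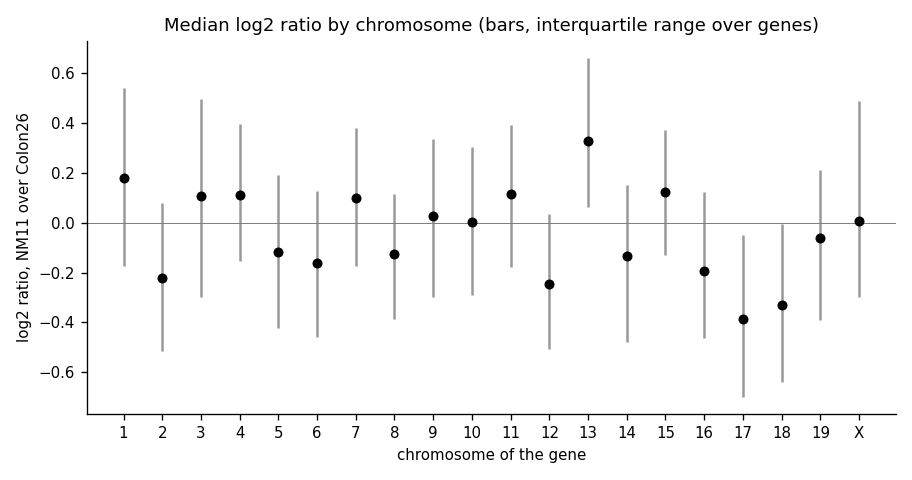
Median log2 ratio of NM11 over Colon26 cells (y axis) over the genes of each chromosome (x axis) that were measured on both arrays, for chromosomes with at least 20 such genes. Bars are the interquartile range over genes and not an error of the median. Of those shown chromosome 13 has the highest median, 0.33, and chromosome 17 the lowest, -0.39.

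Over 12182 windows of 15 neighbouring measured genes the median log2 ratio ran from -0.88 to 1.09, and the middle 90% of windows lay between -0.46 and 0.42. The highest window lay on the X chromosome from *Cfp* to *Pgrmc1*, with a median of 1.09 and 8 genes at least 2-fold higher. It holds *Slx* and predicted genes of the same multicopy family (*Gm5168*, *Gm2030*, *Gm10487* and others), whose probes may share signal. The next was on chromosome 3 from *Shox2* to *Nmd3*, with a median of 0.97, 14 of 15 genes above 0 and 6 at least 2-fold higher, namely *Mlf1* (log2 ratio 1.22), *Lxn* (1.94), *Rarres1* (2.77), *Trim59* (1.07), *B3galnt1* (2.44) and *Nmd3* (1.13). The lowest window was on chromosome 17 from *Mcrip2* to *Neurl1b*, with a median of -0.88, 1 of 15 genes above 0 and 6 at least 2-fold lower, namely *Mcrip2* (log2 ratio -1.08), *Pigq* (-1.44), *Nme4* (-2.79), *Pgap6* (-2.38), *Rgs11* (-3.0) and *Neurl1b* (-1.43). On chromosome 6 the window from *Tpra1* to *Nup210* had a median of -0.84, and it includes *Vmn1r46*, *Vmn1r47* and *Vmn1r52*, close relatives among pheromone receptors.

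Probes of 1 gene mostly agreed. Of 4570 genes with several measured probes 4349 (95.2%) had all of them within 2-fold of each other, 221 did not, and for 3 genes probes passed 2-fold in opposite directions. The widest gaps were those of *Acta2*, *Rap1gap*, *S100a16*, *Slpi* and *Sp110*. Smooth muscle actin, *Acta2*, gave log2 ratios of 0.15 and 5.08 at its probes, and *Sp110*, an interferon-induced nuclear body protein, 0.18 and 6.17. For *S100a16* the probes gave -4.51 and -0.57, and for *Rap1gap* -4.66, at a crowded Colon26 spot, and -0.24. Among list members and genes named above, 26 had a measured probe on another side of the threshold than the brightest one. Of those called at the brightest probe, other probes lay within 2-fold for, among others, *Vegfa*, *Slpi*, *Lss* (log2 ratio 0.54, with a further one at 2.13), *Apoe* (0.48), *Itga3* (-0.84), *Sox9* (-0.35), *Cdh11* (-0.93) and *Pigq* (-0.97). The reverse was found for, among others, *H2-Q7* (1.87), *Mvk* (1.32), *Ebp* (1.04) and *Gm2030* (2.97), whose other probe passed 2-fold.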

How the data were processed

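Total RNA (0.1 µg) of each line was labelled with Cy3 and hybridized to 1 SurePrint G3 mouse array, all on 1 slide scanned once. The authors deposited intensity values per spot from Agilent Feature Extraction 11.5.1.1, background-subtracted and detrended within each array but not scaled between arrays. Flags of 0 or 1 per spot and a table of processed intensity values came with them, the latter being the scanner values times 1 factor per array (0.654 for Colon26 and 0.706 for NM11), also deposited. How the authors chose these factors is not given in the sources used here.

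Control spots and outlier spots (137 on the Colon26 and 99 on the NM11 array) were left out, no spot was saturated, and repeated spots were averaged. Signals were scaled to the 75th percentile (581.1 for Colon26 and 551.5 for NM11 before scaling), and each gene took its probe of highest mean log2 signal over the 3 arrays. A probe below background on 1 array gave a bound, and no ratio was given where both were below or the bound fell under 1. Names came from RefSeq (GRCm38.p6), and the array's own design used mm9, so no probe coordinates are given.

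A single array per line allows no test and limits the precision. The members and lists were chosen with earlier results of these data known. The named genes were, by rule, the 12 highest and 12 lowest measured genes, the 6 largest bounds in each direction, up to 4 members past 2-fold from each of 40 gene lists (all members of lists of up to 8), internal controls, genes of the 2 highest and 2 lowest windows, and the 5 genes whose probes disagreed most. Other list members, and 5 lists, were added after their values were seen. Some named genes are not reported here. On simulated arrays of 22907 genes with 200 changed 4-fold or 8-fold, 100% of these were called with the true direction. The changes set were well past the 2-fold threshold, so this outcome checks the calculation and not the accuracy of the calls. It does not show how reliable calls are for differences near 2-fold, for bounds or for genes with crowded spots. Alternatives changed the scaling, background correction, detection rule, probe rule, threshold and crowded spots. Normexp was run on the median brightness, since the mean is not among the columns. Python 3.11.15 (numpy 2.4.6, pandas 2.3.3, matplotlib 3.10.9) and R 4.3.3 (limma 3.58.1, normexp) were used.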

Additional observations from a re-analysis of the deposited data

Results flagged for a closer look

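Probes without a RefSeq name took no part in the comparison of genes, and signals differed between the lines there too. Of 23616 such probes 10214 had a ratio, 523 were at least 2-fold higher in NM11 cells and 1068 were lower. Over all probes with a ratio 2085 (6.87%) were higher and 2517 (8.29%) lower. The part of crowded spots among these unnamed probes was not tested.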

How the results depend on the processing

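None of 164 named genes past 2-fold and none of the 7 list medians past 2-fold changed sign under any of 13 alternatives. A scaling that shifts all ratios alike moved them by less than 2-fold, so it could not turn these signs. How many of the 164 genes fell back within 2-fold was not counted. Of the 37 list medians within 2-fold 23 did under at least 1 of them, 20 when scaled to *Hprt* (collagens from 0.34 to -0.15, matrix metalloproteinases from 0.37 to -0.12, TGF-beta response from 0.28 to -0.21) and 13 when scaled to E1A, so these have no settled direction. The counts moved too. Scaling to *Hprt* gave 686 higher and 2726 lower genes, 20.1% of the called genes higher and a median log2 ratio of -0.51, and scaling to the E1A spike-in RNAs gave 1937 lower genes, 29.4% and -0.34, since both shift all ratios alike. The share that was higher became 45.6% without scaling, 53.9% after quantile normalization and 54.0% with the authors' processed values. Normexp left 634 lower genes and 56.0% higher. Taking spots significantly above background gave 1809 higher and 2187 lower genes (45.3%), and no filter 1810, 2187, 45.3% and a median of -0.25, as dim genes then entered. A 4-fold threshold left 469 and 394 genes (54.3%). The share was 59.4% without crowded Colon26 spots. Added after seeing the data, leaving out crowded spots of either array gave 57.8%, and a brighter signal of at least 200 gave 642 lower genes and 55.4%. With 1 array per line none could be left out, and scanner error is the only error known. No paired analysis was possible because the labels give no replicate numbers.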
